A study of Mus musculus with 7 samples.

Results

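The 49 genes described here encode parts of the sarcomere other than its myosin heavy chains, and were taken as a list of symbols of 26607 genes in the files. All 49 symbols were present, with 0 missing. By the place of their products, 17 belong to the thin filament, 9 to the thick filament, 19 to titin and the Z-disc, and 4 to the M-band. The cells are C2C12, an established mouse myoblast line whose cells fuse into multinucleated myotubes when serum is withdrawn. RNA-seq libraries were made from 3 unstimulated controls, replicates 1, 3 and 4, and from 4 samples given electrical pulse stimulation (EPS), replicates 1 to 4. EPS makes cultured myotubes contract, and was given 3 days after differentiation began, at 1 Hz for 24 h, with 1 h of rest before collection. All libraries come from this 1 cell line, grown without nerve or other tissue, and the labels do not say whether replicates are separate cultures, so the p-values measure only the spread between these libraries. The comparison asks how far the transcripts of the contractile apparatus differed after a day of EPS.

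The sarcomere is the repeating contractile unit of striated muscle. Thin filaments of actin, tropomyosin and troponin are anchored at the Z-disc, thick filaments of myosin and its binding proteins are anchored at the M-band, and titin spans from one to the other. Many of these proteins exist as fast, slow, cardiac or developmental isoforms encoded by separate genes, and several Z-disc proteins also take part in sensing mechanical load.

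Of the 49 genes, 3 were down-regulated in the EPS group and 0 were up-regulated at P under 0.01 and more than 2-fold. The 3 were Mybpc1 of the thick filament, Myot of the Z-disc and Obsl1 of the M-band. Among all 19144 genes above 0 in at least 1 library, 0.439% were called lower and 0.966% higher by the same limma test on log2(CPM + 1), where CPM is the count of reads of a gene scaled to the total of its library. After Benjamini-Hochberg adjustment over all genes tested, 0 members had an adjusted p under 0.05 in limma, against a background of 0.141%. At an unadjusted P under 0.05, a limit chosen after the values were seen, 6 members were lower and 4 were higher, while the background was 3.21% lower and 8.4% higher. The 4 higher ones were Myoz2, Xirp2, Ankrd2 and Csrp3, and at 8.16% of the members their share is near the background. With each of the 7 libraries left out in turn, P stayed under 0.05 in all 7 cases for Mybpc1, Obsl1, Myot and Actn2, in 6 for Myoz2 (not without control replicate 1), in 5 for Xirp2 (not without control replicate 3 or EPS replicate 3), in 3 for Mybph, and in 2 each for Mybpc2, Ankrd2 and Csrp3.

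Count tests on the whole reads recovered from the CPM called more members. The edgeR quasi-likelihood test called 5 lower and 1 higher, against backgrounds of 1.57% and 1.72% of the genes tested. DESeq2 called 5 lower and 1 higher, against 1.4% and 1.66%. Both tools added Actn2 to the 3 lower members and called Xirp2 higher, while edgeR alone added Tcap and DESeq2 alone added Myoz1. Both of the latter were high in control replicate 4, at 103.5 and 4.88 CPM, and without it their limma log2 fold changes of -1.11 and -0.62 were -0.32 and -0.27. With an adjusted p under 0.05 there were 5 members by edgeR, against a background of 1.51%, and 4 by DESeq2, against 3.39%.

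**Figure D1:**
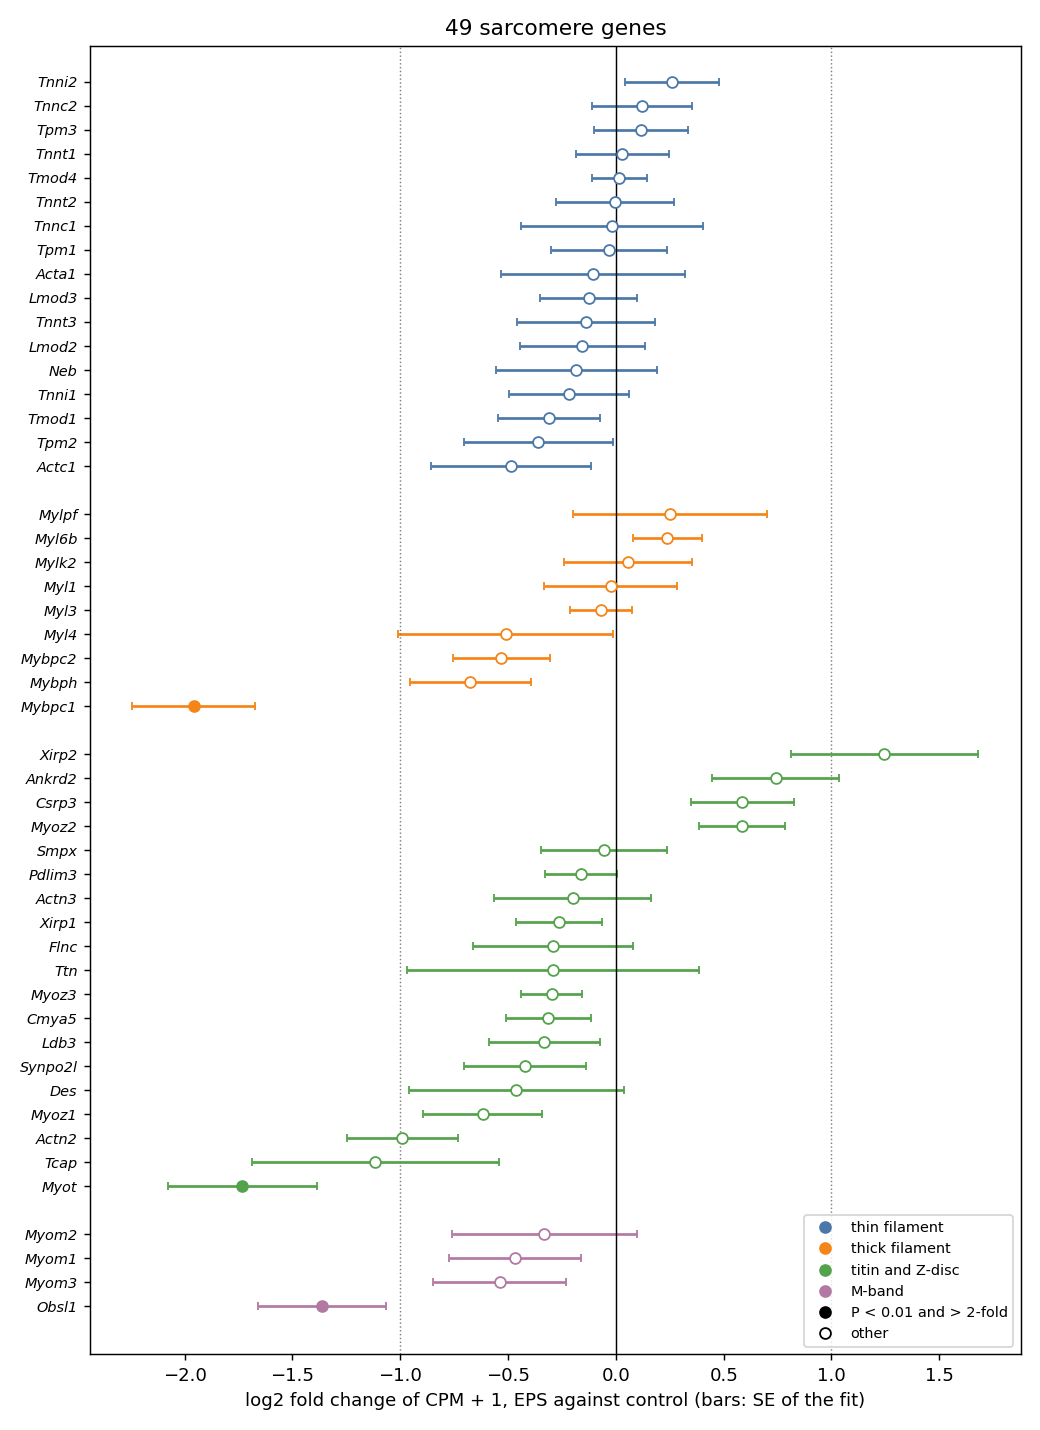
Log2 fold change of CPM + 1, EPS against control (x axis), for each of the 49 sarcomere genes (y axis), grouped by the place of the product; bars are the standard error of the limma fit and dotted lines mark 2-fold. Filled points, Mybpc1 at -1.96, Myot at -1.73 and Obsl1 at -1.36, are the 3 members past P under 0.01 and 2-fold.

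The sequence just before the start of transcription is shown for 6 members that the results turn on, Mybpc1, Obsl1, Actn2 and Mybpc2, which did not overlap between groups and were lower in the EPS group, Myoz2, which did not overlap and was higher, and Xirp2, the member with the highest fold change. No window was matched for Myot and Myoz1, which were also lower without overlap. Each is the 250 bases before the start in RefSeq (GRCm38.p6), on the strand of the gene, 5′ to 3′. Capitals mark every match, on either strand, to CAGCTG (an E-box form bound by MyoD-family factors), CTANNNNTAG (the form bound by MEF2 factors), CATTCC (the MCAT element bound by TEAD factors) or TGANTCA (the AP-1 form). No match in these windows overlapped a match to another of the 4 motifs.
Mybpc1 (chr10:88605153-88605402, minus strand): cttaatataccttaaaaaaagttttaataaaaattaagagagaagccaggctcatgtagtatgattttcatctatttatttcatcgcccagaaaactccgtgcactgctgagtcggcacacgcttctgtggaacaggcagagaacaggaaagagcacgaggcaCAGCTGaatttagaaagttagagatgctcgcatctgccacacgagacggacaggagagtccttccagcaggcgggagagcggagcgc
Obsl1 (chr1:75506453-75506702, minus strand): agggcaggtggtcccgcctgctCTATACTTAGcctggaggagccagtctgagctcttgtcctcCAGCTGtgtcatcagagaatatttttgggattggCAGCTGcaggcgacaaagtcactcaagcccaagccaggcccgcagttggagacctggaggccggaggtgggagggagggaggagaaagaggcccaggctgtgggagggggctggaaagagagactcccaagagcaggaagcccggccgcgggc
Actn2 (chr13:12340733-12340982, minus strand): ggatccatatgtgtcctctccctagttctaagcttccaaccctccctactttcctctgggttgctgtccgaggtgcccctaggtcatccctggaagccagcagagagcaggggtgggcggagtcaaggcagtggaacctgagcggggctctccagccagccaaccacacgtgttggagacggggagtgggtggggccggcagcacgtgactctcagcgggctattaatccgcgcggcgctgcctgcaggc
Mybpc2 (chr7:44524670-44524919, minus strand): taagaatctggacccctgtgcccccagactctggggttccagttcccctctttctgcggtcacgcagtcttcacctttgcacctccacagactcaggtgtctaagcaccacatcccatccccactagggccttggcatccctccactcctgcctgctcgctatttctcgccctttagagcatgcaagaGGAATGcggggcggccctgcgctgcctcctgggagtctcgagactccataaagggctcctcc
Myoz2 (chr3:123034988-123035237, minus strand): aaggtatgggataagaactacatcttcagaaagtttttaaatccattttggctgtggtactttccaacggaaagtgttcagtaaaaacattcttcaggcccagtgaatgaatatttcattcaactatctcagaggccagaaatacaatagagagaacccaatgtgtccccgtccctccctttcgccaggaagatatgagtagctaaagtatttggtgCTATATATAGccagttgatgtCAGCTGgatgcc
Xirp2 (chr2:67445752-67446001, plus strand): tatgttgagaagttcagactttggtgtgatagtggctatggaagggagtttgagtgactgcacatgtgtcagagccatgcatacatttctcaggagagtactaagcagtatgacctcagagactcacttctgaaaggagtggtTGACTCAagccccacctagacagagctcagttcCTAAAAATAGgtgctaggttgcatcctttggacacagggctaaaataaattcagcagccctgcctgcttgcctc
RefSeq windows of this kind were matched for 37 of the 49 members, 44 windows in all, and 32851 windows were read over all genes. CAGCTG was present in 34.1% of the member windows and in 13% of all windows. CTANNNNTAG was present in 18.2% of the member windows and 3.2% of all, in Flnc, Ldb3, Myoz2, Obsl1, Smpx, Synpo2l, Ttn and Xirp2. CATTCC was present in 25% against 12.6%, and TGANTCA in 9.09% against 6.75%. The windows of the lower members Mybpc1 and Obsl1 each held CAGCTG, as did that of Myoz2, so this motif was present in members on either side of 0, and the Actn2 window held none of the 4. A match describes letters in the window only, and binding was not measured.

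Mybpc1 encodes the slow-type myosin-binding protein C, which runs across the thick filament and tunes the reach of myosin heads toward actin. In the order of their replicate numbers, the controls stood at 39.8, 20.8 and 34.1 CPM and the EPS libraries at 6.38, 6.53, 10.2 and 5.95 CPM, the order kept from here on. The highest EPS library lay below the lowest control, and EPS replicate 3 stood above the other EPS libraries. Control libraries averaged 31.6 ± 9.74 CPM (mean ± SD of 3) and EPS libraries 7.27 ± 1.99 CPM (of 4), so the gene fell 4.34-fold. The log2 fold change was -1.96 (standard error, SE, 0.28; limma, P = 8.24e-05, adjusted p = 0.0542), and the exact two-sided permutation test over all 35 arrangements of the libraries gave p = 0.0286, the smallest it can give. Leaving out any 1 library kept its log2 fold change between -2.22 and -1.77. Mybpc1 lies at chr10:88518279-88605152 on the minus strand (GRCm38, GENCODE M21).

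Obsl1 encodes obscurin-like 1, which joins titin to myomesin at the M-band and is also found at the Z-disc. Its level was 413, 256 and 300.1 CPM in the controls and 149.7, 112, 178 and 75.5 CPM after EPS. All EPS libraries were below all controls, with EPS replicate 4 the lowest. The mean fell from 323 ± 81.1 to 129 ± 44.4 CPM, a log2 fold change of -1.36 (SE 0.30; limma, P = 0.00144, adjusted p = 0.12; exact permutation p = 0.0286). The gene lies at chr1:75479310-75506452 on the minus strand, and Tmem198 overlaps it on the plus strand. The use of strand in the counting is not given in the sources used here. Reads from the stretch that the 2 genes share can therefore not be told apart with certainty. Overlap was read from whole gene spans, introns included, so the share of exon reads that it touches is not known. In the same annotation 21 members overlap another gene, and for 11 of them that gene is also listed in the files. Besides Obsl1 these are Actc1, Tnnc1, Tnnc2, Tmod1, Mybph, Myl3, Cmya5, Xirp1, Des and Myom1, where reads of the shared stretch are uncertain too. The partner lies on the opposite strand in each of them except Xirp1, which shares its strand with Cx3cr1.

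Myot encodes myotilin, which binds α-actinin and filamin C and bundles actin at the Z-disc. It was measured at 5.83, 9.93 and 9.67 CPM in the controls and at 1.12, 3.75, 1.78 and 1.17 CPM in the EPS libraries. The groups did not overlap, and EPS replicate 2 was nearest to the controls. The mean fell from 8.48 ± 2.3 to 1.95 ± 1.24 CPM, and the log2 fold change, which the pseudocount of 1 pulls toward 0 at this level, was -1.73 (SE 0.35; limma, P = 0.000788, adjusted p = 0.0979; exact permutation p = 0.0571). 

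Actn2, the α-actinin that cross-links thin filaments at the Z-disc of all striated muscle, lay just outside the 2-fold limit. It was at 99.4, 48.8 and 78.7 CPM in the controls and at 33.5, 30.4, 48.1 and 34.4 CPM in the EPS libraries. The groups were separated by a narrow margin, between control replicate 3 and EPS replicate 3. The means were 75.6 ± 25.4 and 36.6 ± 7.85 CPM, with a log2 fold change of -0.99 (SE 0.26; limma, P = 0.00405, adjusted p = 0.177; exact permutation p = 0.0286). Leaving out 1 library at a time moved it between -1.27, without control replicate 3, and -0.77, without control replicate 1. Scaled by median-of-ratios size factors it was -1.10, past both limits (adjusted p = 0.17).

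**Figure D2:**
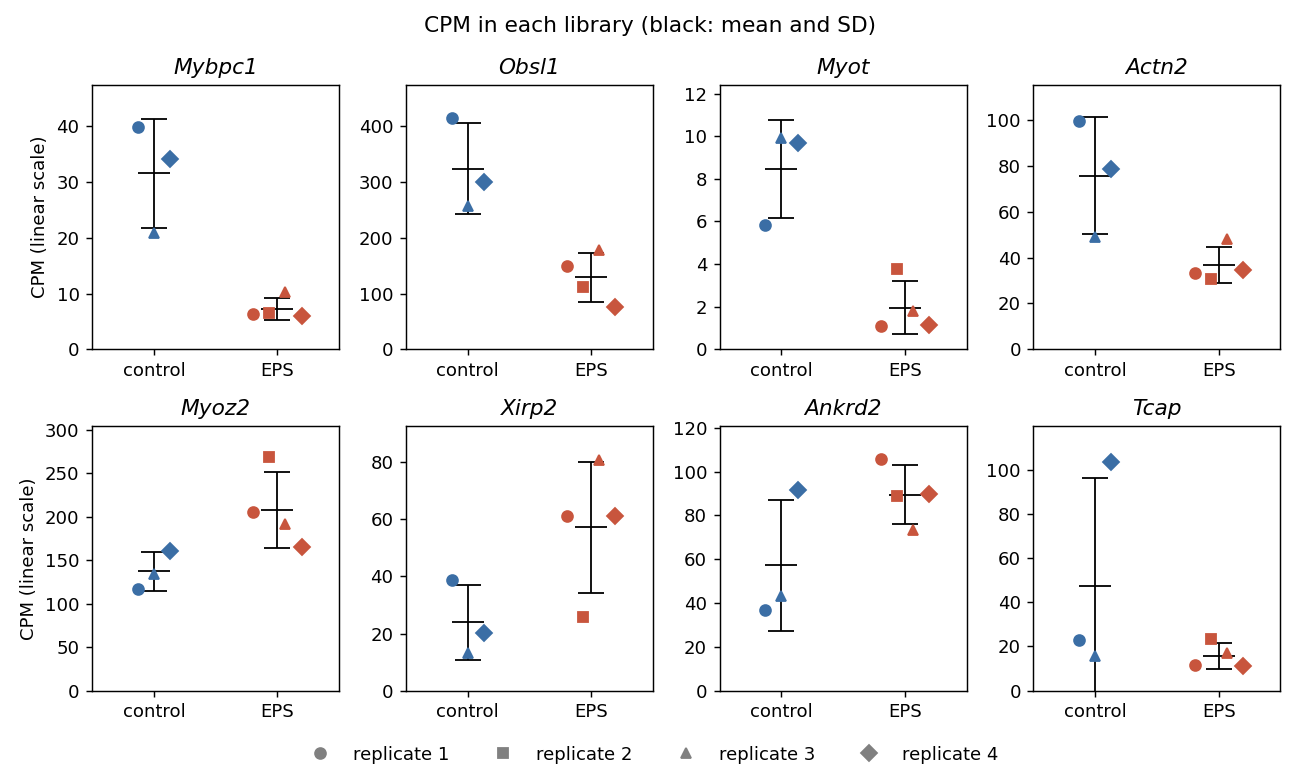
CPM (y axis, linear) of 8 sarcomere genes in the 3 control and 4 EPS libraries; symbols give the replicate number, and black lines the mean and SD, with the lower bar of Tcap ending at 0. Mybpc1, Obsl1, Myot and Actn2 do not overlap and are lower in the EPS group, Myoz2 does not overlap and is higher, and the high control value of Tcap, 103.5 CPM, is control replicate 4.

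Over all members, 6 did not overlap and were lower in every EPS library than in every control, against a background of 2.85% of the genes tested, and 1, Myoz2, did not overlap and was higher, against 7.76%. In addition to the 4 genes above, the lower ones were Mybpc2 and Myoz1. With 6 libraries fewer genes overlap: the lower count was 12 without control replicate 3, against a background of 5.47%, and 12 without EPS replicate 2, against 5.11%. The higher count was 4 without control replicate 4, against 13.1%, made up of Tnnc1, Myl6b, Myoz2 and Ankrd2. The median log2 fold change of the 49 members was -0.20, with 37 of 49 below 0, beside a median of 0.04 over all genes tested, 36.7% of which were below 0. Leaving out 1 library moved the members' median between -0.27, without EPS replicate 3, and -0.10, without EPS replicate 4, where 30 of 49 were below 0. It was -0.12, with 31 below 0, without control replicate 4. Scaling by median-of-ratios size factors moved the median of the 12256 genes with a mean of at least 1 CPM from 0.10 to -0.00 and that of the members to -0.31. The split of all DEGs changed with that scaling from 84 lower and 185 higher to 120 and 134.

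The thin filament genes had the narrowest range of fold changes among the 4 structural groups. Their log2 fold changes ran from -0.49 for Actc1 to 0.26 for Tnni2, 12 of the 17 below 0, and with all 7 libraries 0 of 17 passed at P under 0.05 or differed without overlap. Actc1 moved between -0.22, without control replicate 3, and -0.79, without EPS replicate 2, where its groups did not overlap and its unadjusted P was under 0.05 (limma, adjusted p = 0.366). Acta1, the skeletal α-actin of the thin filament, was at 3572, 3280 and 2774 CPM in the controls and 2769.9, 3109.8, 3193 and 2811 CPM in the EPS libraries, which overlapped. Per kilobase of exon, Tnnc1, the slow and cardiac troponin C that binds calcium, was the highest thin filament gene of the controls at 2093 CPM per kb, and Acta1 the highest of the EPS group at 1934 CPM per kb, next to 1911 for Tnnc1. These neighbours did not differ beyond the spread of Tnnc1, which was at 1504, 1515 and 3517 CPM in the controls and 2221, 2235, 1670.1 and 1833 CPM in the EPS libraries, with control replicate 4 alone high. The sarcomeric actins have nearly identical coding sequences, so the division of reads between their genes is uncertain.

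Within the thin filament, Neb encodes nebulin, the giant protein along the actin filament. It was at 2096, 1864 and 1167 CPM in the controls and 1757, 1487, 1822 and 956 CPM in the EPS libraries, with a log2 fold change of -0.18 (SE 0.37). The groups overlapped, and in both of them replicate 4 was the lowest. The tropomyosins Tpm1, Tpm2 and Tpm3, the troponin T genes Tnnt1, Tnnt2 and Tnnt3, the leiomodins Lmod2 and Lmod3, which elongate thin filaments, and Tmod1, which caps them, had unadjusted P between 0.22 and 0.988. Tmod4, the other pointed-end cap of skeletal muscle, stayed between 0.408 and 0.877 CPM in all 7 libraries. The standard error that limma assigned to the most abundant genes, 0.43 for Acta1, is set by a trend over all genes. It exceeds the spread of that gene in these libraries, so limma could not call smaller changes. The count tests did not call Acta1 either, with an unadjusted P of 0.437 by edgeR and 0.234 by DESeq2.

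In the thick filament, the other myosin-binding proteins were lower by less. Mybpc2, the fast-type myosin-binding protein C, was at 31.0, 27.8 and 27.3 CPM in the controls and 25.6, 17.6, 23.0 and 13.9 CPM in the EPS libraries. These groups did not overlap, and the log2 fold change was -0.53 (SE 0.23; limma, P = 0.044, adjusted p = 0.411; exact permutation p = 0.0571). Mybph, a shorter relative of the same family, was at 644, 548 and 996 CPM against 431, 556, 501 and 317 CPM, with overlap at control replicate 3 and a log2 fold change of -0.67 (limma, P = 0.0408, adjusted p = 0.401; exact permutation p = 0.0857). Without control replicate 4, its highest library, the value for Mybph was -0.43 (adjusted p = 0.6), no longer under 0.05 unadjusted.

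Of the myosin light chains, Mylpf, the fast regulatory light chain, was the highest of the thick filament genes per length in both groups, at 2628 CPM per kb in the controls and 3159 in the EPS group. Its CPM were 2349.97, 3108 and 2915 against 3717, 4102, 2477 and 3124, with a log2 fold change of 0.25 (SE 0.45), between 0.13, without control replicate 1, and 0.39, without EPS replicate 3. The groups overlapped. Myl1, the fast essential light chain, had a log2 fold change of -0.02, and Myl6b, a slow-muscle essential light chain, of 0.24 (SE 0.16). Myl4, the embryonic and atrial essential light chain, was at 1245, 1329.6 and 4715 CPM in the controls and 1466, 1708, 1268 and 1183 CPM in the EPS group. Control replicate 4 alone was high, and the log2 fold change of -0.51 became 0.11 without it. Mylk2, the kinase that phosphorylates the regulatory light chain, had a log2 fold change of 0.06, and Myl3, the slow and ventricular light chain, was barely detected, at 0, 0.301 and 0.588 CPM against 0.140, 0.390, 0.183 and 0.159 CPM.

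Titin and the Z-disc held members on either side of 0, with Myot alone past both limits. Ttn, the giant spring from Z-disc to M-band, was at 7569, 7401 and 4128 CPM in the controls and 7651, 4382, 5194 and 3628 CPM in the EPS libraries. The groups overlapped widely, and the log2 fold change was -0.29 (SE 0.68), between -0.58, without control replicate 4, and -0.14, without EPS replicate 4. Des, the desmin of the intermediate filaments around the Z-disc and the highest of this group per length at 1097 and 775 CPM per kb, was at 3761, 2791 and 5802 CPM against 3597, 2287, 3255 and 2493 CPM. Its log2 fold change was -0.46 (SE 0.50), with overlap, and became -0.18 without control replicate 4 and -0.71 without control replicate 3. Actn3, the fast-fibre α-actinin, was at 921, 693 and 1164 CPM against 1285, 529, 961 and 591 CPM, with a log2 fold change of -0.20 (SE 0.36) that ran from -0.43, without EPS replicate 1, to -0.0086, without EPS replicate 2.

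The myozenins, which tie calcineurin to α-actinin at the Z-disc, differed among themselves. Myoz2, the slow and cardiac form, was at 117, 134 and 161 CPM in the controls and 205, 269, 192 and 165 CPM in the EPS libraries. All EPS libraries were above all controls, the closest pair being replicate 4 of either group. The means were 137 ± 22.2 and 208 ± 44.0 CPM, with a log2 fold change of 0.59 (SE 0.20; limma, P = 0.0165, adjusted p = 0.288; exact permutation p = 0.0571). Under median-of-ratios scaling it was 0.47, and the groups overlapped. Myoz1, the fast form, was low, at 1.92, 1.75 and 4.88 CPM against 1.35, 1.17, 1.28 and 1.65 CPM. Its groups did not overlap, although control replicate 4 alone was well above the EPS range. Myoz3 was near the limit of detection, at 0.292, 0 and 0.633 CPM against 0.0465, 0, 0.137 and 0 CPM.

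Xirp2 encodes an actin-binding protein with Xin repeats, found where new sarcomeres are made. It was at 38.6, 13.1 and 20.03 CPM in the controls and 61.2, 25.7, 80.7 and 61.2 CPM in the EPS libraries. EPS replicate 2 lay within the control range and the other 3 lay above it. The means were 23.9 ± 13.2 and 57.2 ± 22.9 CPM, with a log2 fold change of 1.25 (SE 0.44; limma, P = 0.0192, adjusted p = 0.305; exact permutation p = 0.0857). Without EPS replicate 2 it was 1.58 (adjusted p = 0.169) and without control replicate 1 it was 1.65 (adjusted p = 0.224), past the limits of an unadjusted P under 0.01 and 2-fold in both cases. Without control replicate 3 it was 0.90, under 2-fold. Xirp2 lies at chr2:67446002-67526614 on the plus strand, and Xirp1, its paralogue, had a log2 fold change of -0.26 (SE 0.20).

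Ankrd2, an ankyrin-repeat protein of the I-band known to respond to stretch, was at 37.0, 43.1 and 91.4 CPM in the controls and 106, 89.0, 73.2 and 89.9 CPM in the EPS libraries. Control replicate 4 was within the EPS range and the other controls were below it. The log2 fold change was 0.74 (SE 0.29; limma, P = 0.0328, adjusted p = 0.373; exact permutation p = 0.114), which was 1.13 without control replicate 4 (adjusted p = 0.0927), past both limits, and 0.49 without control replicate 1 (adjusted p = 0.556). By edgeR and DESeq2 its adjusted p was 0.457 and 0.484, with an unadjusted P above 0.05. Csrp3, the muscle LIM protein of the Z-disc, was at 40.4, 62.9 and 43.9 CPM against 69.8, 101, 53.4 and 75.0 CPM. Its groups overlapped at control replicate 3 and EPS replicate 3, and the log2 fold change was 0.59 (SE 0.24; limma, P = 0.036, adjusted p = 0.383; exact permutation p = 0.114).

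Tcap, the telethonin that caps the end of titin at the Z-disc, was at 22.7, 15.8 and 103.5 CPM in the controls and 11.5, 23.3, 16.9 and 11.05 CPM in the EPS libraries. A single library, control replicate 4, was high, and the other controls lay within the EPS range. The log2 fold change was -1.11 (SE 0.57; limma, P = 0.0846; exact permutation p = 0.2), and -0.32 (adjusted p = 0.766) without that library. Smpx, a small Z-disc and costamere protein, was at 71.7, 75.8 and 86.4 CPM in the controls and 54.9, 137, 63.2 and 65.1 CPM in the EPS group, where replicate 2 stood apart. Its log2 fold change was -0.06. Flnc, Ldb3, Synpo2l and Pdlim3, which link the Z-disc to actin and membrane, had log2 fold changes between -0.42 and -0.16, with P between 0.17 and 0.455. Cmya5, a desmin-binding protein, was at 0.991, 0.481 and 0 CPM against 0.233, 0.244, 0.0457 and 0.106 CPM, which overlapped.

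Beyond Obsl1, the M-band group held the myomesins, which bridge neighbouring thick filaments. Their log2 fold changes were -0.47 for Myom1, -0.33 for Myom2 and -0.54 for Myom3, with P between 0.115 and 0.46. Myom2, the highest of the 4 per length at 62.0 and 51.9 CPM per kb, was at 814, 362 and 472 CPM in the controls and 390.03, 334, 858 and 256 CPM in the EPS libraries. Control replicate 1 and EPS replicate 3 were both high, so the groups overlapped over nearly their whole range, and the value for Myom2 was -0.0055 without the former and -0.68 without the latter. Across the 45 members with a mean of at least 1 CPM, the level of a library relative to the median of its own group rose with exon length in the same 2 libraries. As a description across genes, Spearman's rho was 0.56 in control replicate 1 and 0.50 in EPS replicate 3, and between -0.48 and 0.09 in the other 5 libraries. The part of this difference between libraries in the results was not tested.

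**Figure D3:**
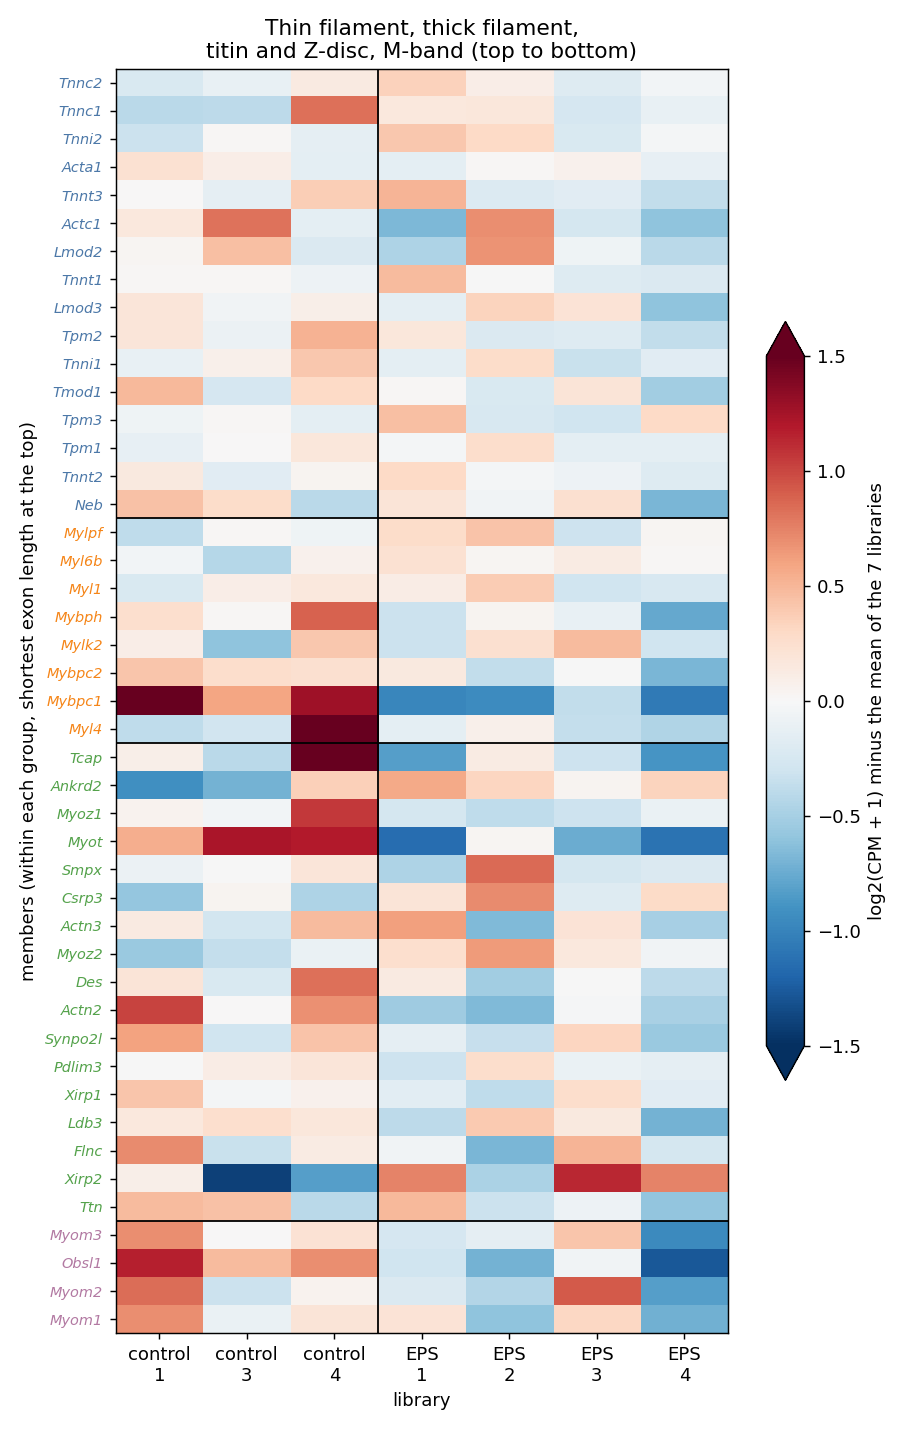
Log2(CPM + 1) of the 45 sarcomere genes with a mean of at least 1 CPM (rows, by structural group and by exon length within it) in the 7 libraries (columns), minus the mean of each gene over the libraries; colours end at 1.5 in either direction. Mybpc1, Myot and Obsl1 are above their mean in all 3 controls, Tcap and Myl4 stand out in control replicate 4, and long genes such as Myom2 and Flnc are high in control replicate 1 and EPS replicate 3.

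Together, the 49 genes took 3.99%, 3.69% and 4.42% of the reads of the controls and 4.08%, 3.55%, 3.47% and 2.91% of those of the EPS libraries. The groups overlapped, with means of 40327 ± 3684 and 35003 ± 4782 CPM. By structural group, the summed levels were 17252 ± 1272 against 15864 ± 1774 CPM for the thin filament, 7588 ± 2513 against 6837 ± 1275 CPM for the thick filament, 14273 ± 1336 against 11466 ± 2844 CPM for titin and the Z-disc, and 1214 ± 410 against 836 ± 392 CPM for the M-band. Every one of these sums overlapped between the groups. In bulk RNA, fewer myotubes and less RNA per myotube cannot be told apart.

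**Figure D4:**
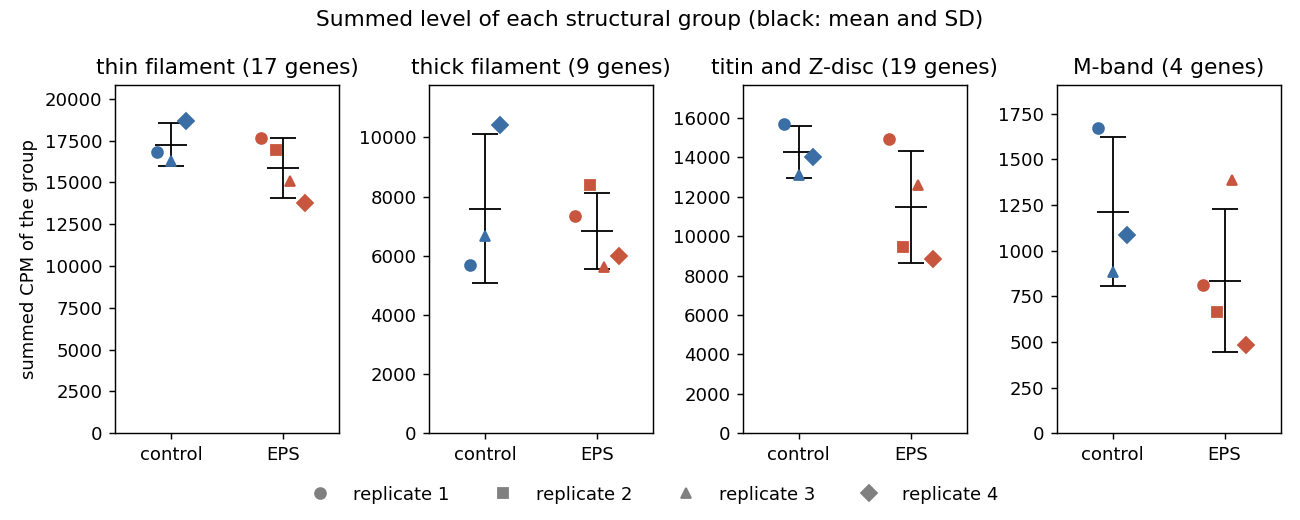
Summed CPM (y axis, from 0) of the members of each structural group in the 3 control and 4 EPS libraries; symbols give the replicate number and black lines the mean and SD. The EPS libraries range from 13753 to 17664 CPM for the thin filament and from 483 to 1389 CPM for the M-band, overlapping the controls in each group.

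Pairs of isoforms were compared as the log2 ratio of CPM + 1 within a library. These ratios do not depend on how the library was scaled, apart from the pseudocount. The pairs Actn2/Actn3, Tnnt2/Tnnt3 and Myl4/Myl1 do not set a slow form against a fast one. Of 9 ratios, 4 did not overlap between the groups. No share over other pairs of genes was computed, so this count has no background beside it. Apart from Tnni1/Tnni2, each of the 4 holds a member that did not overlap by itself. The ratio of Mybpc1 to Mybpc2, slow to fast, was 0.35, -0.40 and 0.31 in the controls and -1.85, -1.30, -1.09 and -1.10 in the EPS libraries, and the difference was -1.43 (exact permutation p = 0.0286, Benjamini-Hochberg adjusted over the 10 ratios computed 0.0952). Every EPS library was below every control. That of Tnni1 to Tnni2, the slow and fast troponin I, which were at 1042, 1189.9 and 1485 and at 402, 510.3 and 457 CPM in the controls, was 1.37, 1.22 and 1.70 against 0.61, 1.14, 1.05 and 1.02. The difference was -0.48 (exact permutation p = 0.0286, adjusted 0.0952), while in the EPS libraries Tnni1 was at 1014, 1363, 891 and 1001 CPM and Tnni2 at 664, 618, 430.4 and 494 CPM.

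In the opposite direction, the ratio of Myoz2 to Myoz1, slow to fast, was higher in the EPS group. It was 5.33, 5.62 and 4.78 in the controls and 6.45, 6.96, 6.40 and 5.97 in the EPS libraries. The difference was 1.20 (exact permutation p = 0.0286, adjusted 0.0952). Myoz1 was low, so the pseudocount weighs on this ratio. With a pseudocount of 0.1 the difference was 1.46, and without control replicate 4, where Myoz1 was highest, it was 0.97. The ratio of Actn2 to Actn3 was -3.20, -3.80 and -3.87 against -5.22, -4.08, -4.29 and -4.07, a difference of -0.79 (exact permutation p = 0.0571, adjusted 0.143), and -0.52 without EPS replicate 1. Of the 4 separated ratios, 3 were lower and 1 was higher in the EPS group, and none had an adjusted value under 0.05. The other 5 ratios, Tnnt1/Tnnt3, Tnnt2/Tnnt3, Tnnc1/Tnnc2, Myl3/Myl1 and Myl4/Myl1, overlapped, with differences between -0.49 and 0.17 and exact permutation p between 0.4 and 0.83. With 3 libraries against 4, no ratio could reach an adjusted value under 0.05 unless several were as separated as the libraries allow.

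**Figure D5:**
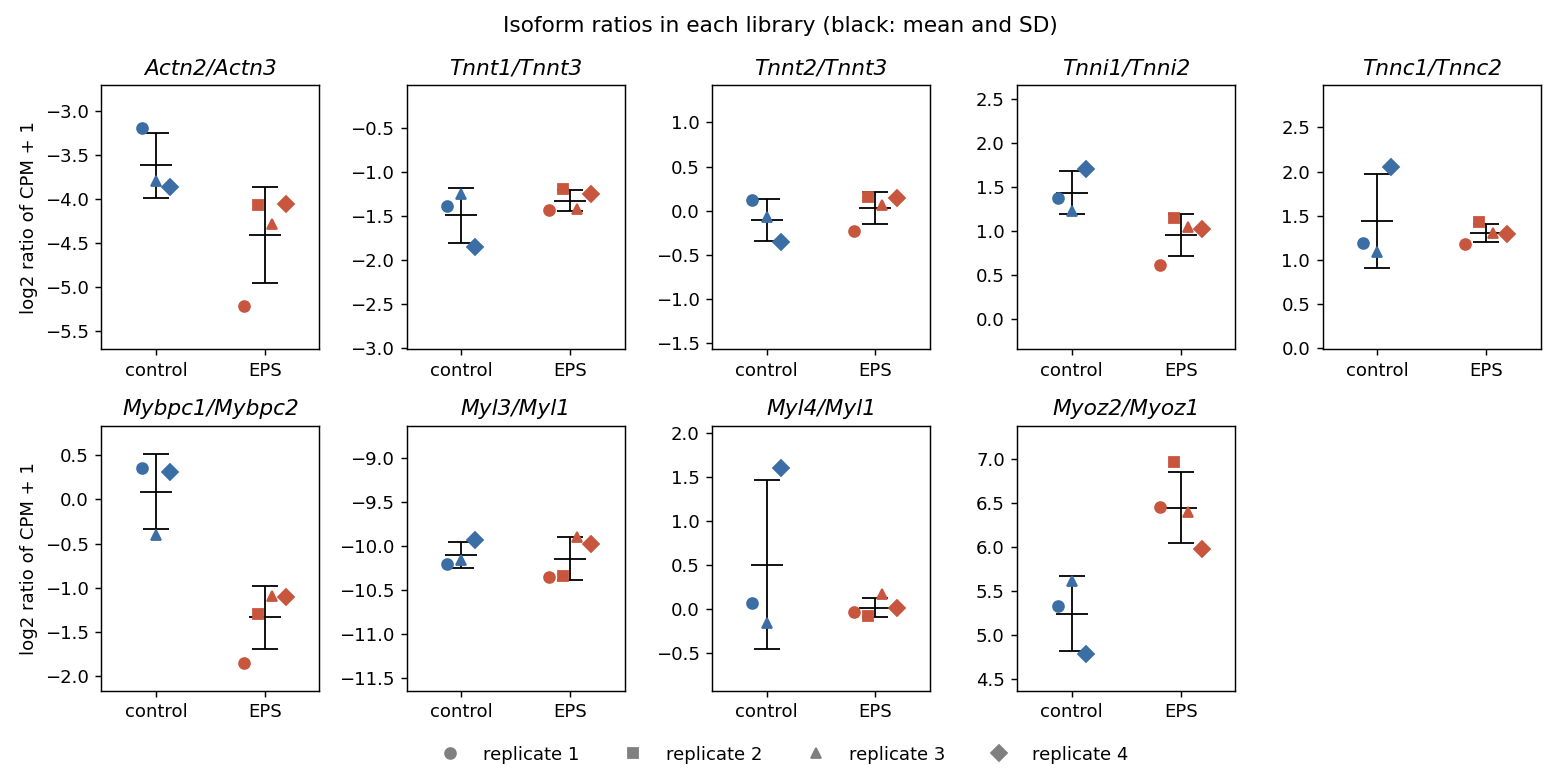
Log2 ratio of CPM + 1 (y axis, each panel on its own range) for the 9 isoform pairs in the 3 control and 4 EPS libraries, with mean and SD in black. Mybpc1/Mybpc2, Tnni1/Tnni2 and Actn2/Actn3 are lower in every EPS library than in every control, and Myoz2/Myoz1 is higher.

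Sorted by fibre type instead of by place, the 9 fast-fibre isoforms had a median log2 fold change of -0.14, with 0 called, 6 below 0, and at P under 0.05 only Mybpc2 lower and none higher. The 9 slow-fibre isoforms had a median of 0.03, with 1 called lower, Mybpc1, against a background of 0.439%. At P under 0.05 no further one was lower and 3 were higher, Myoz2, Ankrd2 and Csrp3. The background at P under 0.05 is 8.4% higher and 3.21% lower, here and in the counts that follow. Of the 7 load-responsive Z-disc genes, 0 were called, and 3 were higher at P under 0.05, Xirp2, Ankrd2 and Csrp3, each of which lost it without certain libraries, while Tcap, the lowest of them, was at -1.11. Of 27 other genes of sarcomere structure and assembly, 26 were tested and 1 was called lower, against the background of 0.439%, while 5 were lower, against 3.21%, and 4 higher, against 8.4%, at P under 0.05. The called gene was Capn3, the calpain bound to titin, with a log2 fold change of -1.19 (limma, adjusted p = 0.126). Igfn1, an immunoglobulin-domain protein of the Z-disc, was at -1.45 (adjusted p = 0.246), and Nrap, a scaffold of early myofibrils, at 0.93 (adjusted p = 0.294). Of the 7 sarcomeric myosin heavy chain genes, which are not among the 49, 2 were called lower, against the background of 0.439%. They were Myh4 at -2.48 (limma, adjusted p = 0.108) and Myh7b at -2.35 (adjusted p = 0.0712).

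Libraries held between 16616917 and 22120641 reads. Control replicate 4 was the deepest, yet 359 genes there had between 1 and 5 reads where every other library had 2670 to 3181 such genes. It also had the highest Myog, 1794 CPM against 278 to 605 CPM elsewhere. The 3 called members passed both limits without it. Summed over 6 myotube markers, the level was 3568 to 4323 CPM in the controls and 2383 to 4127 CPM in the EPS group. Of 6 markers of myoblasts and proliferation, the 4 cell-cycle genes Mki67, Top2a, Ccnb1 and Cdk1 were higher in the EPS group at P under 0.05 (background 8.4%), while the myoblast markers Pax7 and Myf5 did not pass, with log2 fold changes of -0.12 and 0.20. The 6 markers had sums of 218 to 313 CPM in the controls and 333 to 925 CPM in the EPS group. The 4 fibroblast markers, Col1a1 the most abundant, summed to 509 to 942 and 397 to 966 CPM, of which Pdgfra was higher, at a log2 fold change of 0.70, and Lum and Dpt lower, at -0.89 and -0.47, at P under 0.05. The part of these markers in the levels of the sarcomere genes was not tested. Adipocyte, endothelial and macrophage markers were each below 1 CPM when summed, with Plin1 and Adgre1 at 0 in every library.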

How the data were processed

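RNA-seq was measured in 7 libraries. Per the labels and the methods of the study, poly(A) RNA was made into directional libraries, sequenced as paired-end reads and mapped to GRCm38 with STAR 2.5.4b by the authors. The read counter and its annotation are not given in the sources used here. The authors deposited CPM for 26607 symbols, neither log-transformed nor quantile-normalized. All values, 100% within 0.01 reads, were whole multiples of 1 read, so reads were recovered.

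Here log2(CPM + 1) of the 19144 genes above 0 in any library was tested with limma 3.58.1 (R 4.3.3, trended empirical Bayes, two-sided, all 7 libraries, no covariate), with Benjamini-Hochberg adjustment over all genes. A DEG had P under 0.01 and more than 2-fold change. Exact permutation tests used all 35 arrangements. Of 10 isoform ratios, 1 is not reported here. edgeR 4.0.16 and DESeq2 1.42.0 on recovered reads, a pseudocount of 0.1, a minimum mean of 1 CPM, other scalings, a replicate block and leaving out each library were alternatives. Levels per kb used GENCODE M21 exon lengths. A level of 3 reads was 0.136 to 0.181 CPM, covering counting error only.

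Members and lists were chosen with earlier results of these data known. Values are given by library for members past the thresholds, not overlapping, highest per length in their group, in a separated ratio, with 1 library apart or at P under 0.05, and for Ttn and Neb. A control library was apart when over 2 times the next, or below the next by the same factor.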

Additional observations from a re-analysis of the deposited data

Results flagged for a closer look

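In 64 sets of 4 EPS values (49 genes, 9 ratios and 6 sums), 2 held a library far from the other EPS libraries by Dixon's criterion, and chance gives about 1 in 20. Mybpc1 was at 10.2 CPM in EPS replicate 3, against 5.95 to 6.53 CPM in the others, still below every control. Smpx was at 137 CPM in EPS replicate 2, against 54.9 to 65.1 CPM.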

How the results depend on the processing

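The 3 lower members passed both limits under every alternative except the replicate block, where Obsl1 was at -1.32 but missed P under 0.01 (adjusted p = 0.527) and 2 passed. Members called higher numbered 1 with a pseudocount of 0.1 (background 2.32%), a mean of at least 1 CPM (1.79%), edgeR (1.72%) or DESeq2 (1.66%), and 0 to 1 when 1 library was left out (0.733% to 1.23%; 0 to 0 for adjusted p under 0.05). Members called lower numbered 5 by edgeR (1.57%) and 5 by DESeq2 (1.4%). Adjusted p fell under 0.05 for 1 member with a pseudocount of 0.1 (background 0.554%), 3 with a mean of at least 1 CPM (0.987%), 5 by edgeR (1.51%) and 4 by DESeq2 (3.39%). Members without overlap numbered 6 to 12 lower (background 3.39% to 6.53%) and 1 to 4 higher (9.62% to 16%) with 1 library left out, and 0 higher under median-of-ratios scaling (5.4%). The labels do not say whether replicate numbers pair the samples. Deviations of same-numbered libraries from their group means correlated at 0.25, -0.45 and 0.07 for replicates 1, 3 and 4 over 12256 genes. With so few libraries these values cannot decide whether the samples are paired. The replicate block leaves out EPS replicate 2, which has no control of its number: all genes called were 62 lower and 99 higher with it, 110 and 165 without that library and no block, and 84 and 185 with all libraries. With the block the ratio differences were -0.54 for Tnni1/Tnni2, -1.44 for Mybpc1/Mybpc2, 1.03 for Myoz2/Myoz1 and 0.022 for Myl3/Myl1, where 3 pairs cannot give a p below 0.25. Leaving out 1 library gave -0.58 to -0.34 for Tnni1/Tnni2, -1.67 to -1.25 for Mybpc1/Mybpc2, 0.97 to 1.39 for Myoz2/Myoz1 and -0.91 to -0.52 for Actn2/Actn3. For the overlapping ratios it gave -0.0082 to 0.29 for Tnnt1/Tnnt3, 0.0059 to 0.24 for Tnnt2/Tnnt3, -0.32 to 0.17 for Tnnc1/Tnnc2, -0.13 to 0.039 for Myl3/Myl1 and -0.82 to 0.063 for Myl4/Myl1. Too few arrangements then remained for p under 0.05. Leaving out 1 library also turned uncalled log2 fold changes, with ranges of -0.44 to 0.020 for Neb, -0.23 to 0.39 for Tnnc1, -0.24 to 0.090 for Myl3, -0.85 to 0.11 for Myl4 and -0.35 to 0.089 for Smpx. With a pseudocount of 0.1, Myl3 was 0.012 and Myl3/Myl1 0.035, and with quantile normalization Acta1 was 0.088 and Tnnc1 0.16. Centring each library on the median of the members, chosen after seeing the data, shifts all genes up and gave 2 called higher (background 3.97%), 7 with adjusted p under 0.05 (33.6%), and values of 0.22 for Acta1, 0.13 for Actn3, 0.038 for Ttn, 0.15 for Neb, 0.11 for Tnni1, 0.31 for Tnnc1, 0.26 for Myl3, 0.034 for Myoz3, 0.016 for Cmya5 and 0.27 for Smpx. Causes of these differences were not tested. At 0.136 to 0.181 CPM for 3 reads, depth limits Myl3, Myoz3 and Cmya5, while Tmod4, also low, was above that level in every library.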
